A study of Mus musculus with 28 samples.

Results

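Cathepsins are the proteases of the lysosome, and cystatins are small proteins that inhibit many of them. Expression of 10 such genes was followed here, namely the mouse count rows of 2 cystatins (Cst7 and Cst3) and 8 cathepsins (Ctsa, Ctsb, Ctsc, Ctsd, Ctsh, Ctsl, Ctss and Ctsz), of 40481 mouse genes counted. The 10 were chosen by name, and all 10 passed the filter on low counts in both cell types. RNA was sequenced from microglia (sorted with a CD11b antibody) and astrocytes (sorted with an ACSA-2 antibody) of cortex, hippocampus and thalamus of the same mice, and 26 of 28 libraries were used, from 13 of 14 mice. All animals were APOE4fl/fl, that is, homozygous for a human APOE4 knock-in flanked by loxP sites. The labels give 1 treatment for every sample: mice aged 3.8 months received tamoxifen into the peritoneum in 2 doses of 100 mg/kg, and cells were taken 10 days later. The groups were APPPS1::APOE4fl/fl mice (5 mice), APPPS1::APOE4fl/fl::ALDH1L1-CreERT mice (4 of 5 used, where the series text counts 4 mice in each APPPS1 group), APOE4fl/fl mice without amyloid transgenes (2 mice) and APOE4fl/fl::ALDH1L1-CreERT mice without them (2 mice). APPPS1 mice carry transgenes driven in neurons by the Thy1 promoter and form amyloid plaques. ALDH1L1-CreERT is a tamoxifen-inducible Cre driven in astrocytes, used to delete APOE4 there. The series compared how amyloid and the loss of astrocytic APOE4 changed both cell types. The labels describe no group without tamoxifen and none with mouse Apoe alone, and each mouse gave 1 library per sort.

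Newly made cathepsins travel to endosomes and lysosomes as inactive precursors, bound in part through mannose 6-phosphate tags, and are activated there by cleavage. Cst3 (cystatin C) is a secreted inhibitor made by many cell types, whereas Cst7 (cystatin F) is made mainly by blood-lineage cells and reaches the lysosome, where it can restrain cathepsin C. In the brain, microglia express most of these proteases at high levels, and Cst7 is a well known marker of microglia around amyloid plaques.

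Total counts in the libraries used ran from 26162612 to 59238523, and the labelled cell types carried their markers. P2ry12, a microglial receptor, stood at 4044 to 10390 CPM (counts scaled to a common library size, with TMM factors within a sort) in microglia and at 10.02 to 19.43 CPM in astrocytes. Gja1, an astrocytic gap junction gene, stood at or below 19.8 CPM in microglia and at 3764 CPM or above in astrocytes. The APPPS1 Cre-positive mouse 459 was left out, since its libraries went against their labels. In the library labelled microglia P2ry12 stood at 15.87 CPM and Gja1 at 6980 CPM, and in the one labelled astrocyte they stood at 7290 and 1.07 CPM. A pair of microglia libraries stood apart from the other 11. In those of mice 22 and 26, which form the whole amyloid-free Cre-positive group, 15 microglial markers summed to 40400 and 21810 CPM, against 50630 to 62910 CPM elsewhere. Their mean log2 CPM over 45 markers of astrocytes, neurons, oligodendrocytes and endothelium was 1.76 and 2.09, against at most 1.11 elsewhere. Summed CPM did not follow this for every cell type. Endothelial sums were 102.4 and 243.3 CPM in this pair, and at most 78.16 CPM elsewhere. Astrocyte sums were 399.8 and 280.7 CPM, against 376.9 and 346.6 CPM in mice 465 and 759 and at most 247.1 CPM with amyloid. Oligodendrocyte sums, 150.7 and 176.6 CPM, lay within the range of APPPS1 mice (113.7 to 253.1 CPM). Of monocyte and neutrophil markers (10 genes), mice 22 and 26 had 3473 and 6958 CPM, against 265.5 to 6784 CPM (median 762.1) in APPPS1 mice and 2532 and 1536 CPM in amyloid-free mice 465 and 759. Border macrophage markers (10 genes) summed to 887 and 705.2 CPM in mice 465 and 759. They summed to 286.6 to 598.2 CPM in APPPS1 mice and to 414.7 and 420.5 CPM in mice 22 and 26. Single markers did not all follow the sum. Cbr2 stood at 3.864 to 7.185 CPM in mice 22 and 26 and at 10.78 to 22.85 CPM in APPPS1 mice. Of the 10 genes, 8 had a higher fitted level in APPPS1 Cre-positive mice than in mice 22 and 26. Amyloid effects averaged over Cre are therefore also given without mice 22 and 26. The contrasts within Cre-positive and within amyloid-free mice have no value without them. In sorted pools, fewer cells of a type and less RNA per cell cannot be told apart.

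The promoters of the members that the results turn on are shown first, from RefSeq on GRCm38.p6, as 250 bases before and 50 bases after a gene's start. Of the 10 members, 8 matched the RefSeq table, with 9 promoters. Cst7 is shown because its level differed most with amyloid, Ctsd and Ctsl because they were higher in every APPPS1 microglia library than in any amyloid-free one, and Ctss because its level differed widely between the sorts. Capitals mark CACGTG, the core bound by TFEB and related regulators of lysosomal genes, and GAGGAAGT, a form of the PU.1 element of myeloid genes, on either strand (the latter reads ACTTCCTC on the other).
Cst7 (chr2:150570165-150570464 plus strand): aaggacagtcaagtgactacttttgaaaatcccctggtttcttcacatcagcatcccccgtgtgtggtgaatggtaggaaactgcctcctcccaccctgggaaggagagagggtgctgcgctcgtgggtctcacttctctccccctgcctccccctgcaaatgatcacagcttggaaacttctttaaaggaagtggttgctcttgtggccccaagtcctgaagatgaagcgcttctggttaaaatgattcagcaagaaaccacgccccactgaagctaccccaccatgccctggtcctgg
Ctsd (chr7:142387778-142388077 minus strand): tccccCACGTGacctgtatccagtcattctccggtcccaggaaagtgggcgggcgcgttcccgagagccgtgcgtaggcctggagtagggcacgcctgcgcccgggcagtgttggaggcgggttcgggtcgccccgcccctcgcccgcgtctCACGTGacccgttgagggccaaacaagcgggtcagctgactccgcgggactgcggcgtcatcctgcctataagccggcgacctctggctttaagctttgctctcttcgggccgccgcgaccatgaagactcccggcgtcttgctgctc
Ctsl (chr13:64370471-64370770 minus strand): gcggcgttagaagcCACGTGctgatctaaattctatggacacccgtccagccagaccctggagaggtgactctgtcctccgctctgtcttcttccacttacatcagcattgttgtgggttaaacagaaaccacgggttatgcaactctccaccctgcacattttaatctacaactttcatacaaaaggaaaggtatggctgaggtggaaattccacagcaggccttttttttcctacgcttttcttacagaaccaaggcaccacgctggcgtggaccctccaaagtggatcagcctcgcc
Ctss (chr3:95526536-95526835 plus strand): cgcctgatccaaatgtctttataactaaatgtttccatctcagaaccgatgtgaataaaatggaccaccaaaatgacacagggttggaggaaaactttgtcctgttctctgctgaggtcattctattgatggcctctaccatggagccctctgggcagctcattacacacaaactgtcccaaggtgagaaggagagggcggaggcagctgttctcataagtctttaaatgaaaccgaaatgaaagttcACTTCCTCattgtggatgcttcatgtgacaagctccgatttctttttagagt
CACGTG occurred 2 times in the Ctsd promoter, beginning 245 and 98 bases before the start, and 1 time in that of Ctsl, 236 bases before it. It also occurred 2 times in the second of the Ctsa promoters, and in 7.15% of all 32851 RefSeq promoters of this length. A longer form, with set bases on both sides of CACGTG, was in 0.326% of all promoters and in no member's. GAGGAAGT began 2 bases before the Ctss start and 151 bases before that of Ctsc, and occurred in 3.2% of all promoters. Its shorter form GAGGAA, which every GAGGAAGT contains, was also in the Cst3 promoter and in 28.3% of all. TGACTCA, an AP-1 element, was in 5.2% of all promoters and in no member's. The Cst7 promoter held none of these motifs. Ctsz was also higher in every APPPS1 microglia library than in any amyloid-free one. Its promoter, not shown here, held none of these motifs either. A match describes the letters only.

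Cst7 was the member with the largest difference with amyloid in microglia. It is encoded on chromosome 2 (150570415 to 150578944, on GRCm38 by GENCODE M21, as for all positions below). Among APPPS1 Cre-negative mice it stood at 251.5, 662, 1408, 1932 and 2709 CPM, and among APPPS1 Cre-positive mice at 1043, 1303, 1433 and 1478 CPM. The amyloid-free Cre-negative mice had 8.36 and 9.99 CPM and the Cre-positive mice 11.75 and 12.28 CPM. The lowest APPPS1 library, that of mouse 469, was thus far above every amyloid-free one, and the groups did not overlap. The mean was 1358 ± 706 CPM (SD, n = 9) with amyloid and 10.6 ± 1.78 CPM (SD, n = 4) without. Averaged over Cre, the log2 fold change was 7.01 ± 0.60 (SE, adjusted p = 8.9e-05, edgeR's quasi-likelihood test with Benjamini-Hochberg adjustment over 17593 genes). Cst7 rose within Cre-negative mice (7.24 ± 0.86, edgeR adjusted p = 0.00534) and within Cre-positive mice (6.77 ± 0.85, edgeR adjusted p = 0.00975). Without mice 22 and 26 its log2 fold change was 7.22 (edgeR adjusted p = 0.00664), and with other-cell markers as covariate it was 6.25 (edgeR adjusted p = 0.0800).

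Cst3, the secreted cystatin C (chromosome 2, 148871722 to 148875692), was more abundant and did not pass the test. Its levels were 24520 to 31470 CPM (median 27090, 9 mice) with amyloid, and 22700, 27610, 22770 and 14120 CPM in amyloid-free mice 465, 759, 22 and 26. The groups overlapped, and the low value was that of mouse 26. The log2 fold change was 0.32 ± 0.14 (edgeR adjusted p = 0.148), and 0.11 ± 0.13 without mice 22 and 26 (edgeR adjusted p = 0.782). Per base of transcript, Cst3 was 11.5 to 126 times as abundant as Cst7 in APPPS1 microglia and 1320 to 3790 times in amyloid-free microglia, so the inhibitors came closer without changing order.

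Averaged over Cre, 8 of the 10 members rose with amyloid in microglia (edgeR, adjusted p under 0.05), where 6.06% of all 17593 genes tested rose. The median log2 fold change of the 10 was 1.20, and that of all genes was -0.053. The 8 were Cst7 and 7 of 8 cathepsins. The number fell to 1 (Cst7) without mice 22 and 26 and to 0 with other-cell markers as covariate. In that fit without the pair, where mice 465 and 759 alone are amyloid-free, 4 of 10 border macrophage markers were lower with amyloid (Cbr2, Cd209f, F13a1 and Ms4a7), and the part of those cells was not tested. The number of members was 5 without mouse 759, 6 without mouse 26, 7 without mouse 465 and 8 or 9 without each of the other mice. Mice 22 and 26 had the lowest level of 7 cathepsins and the highest mean log2 CPM of other-cell markers among the 13 microglia libraries. The part of those other cells in the result was not tested.

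**Figure D1:**
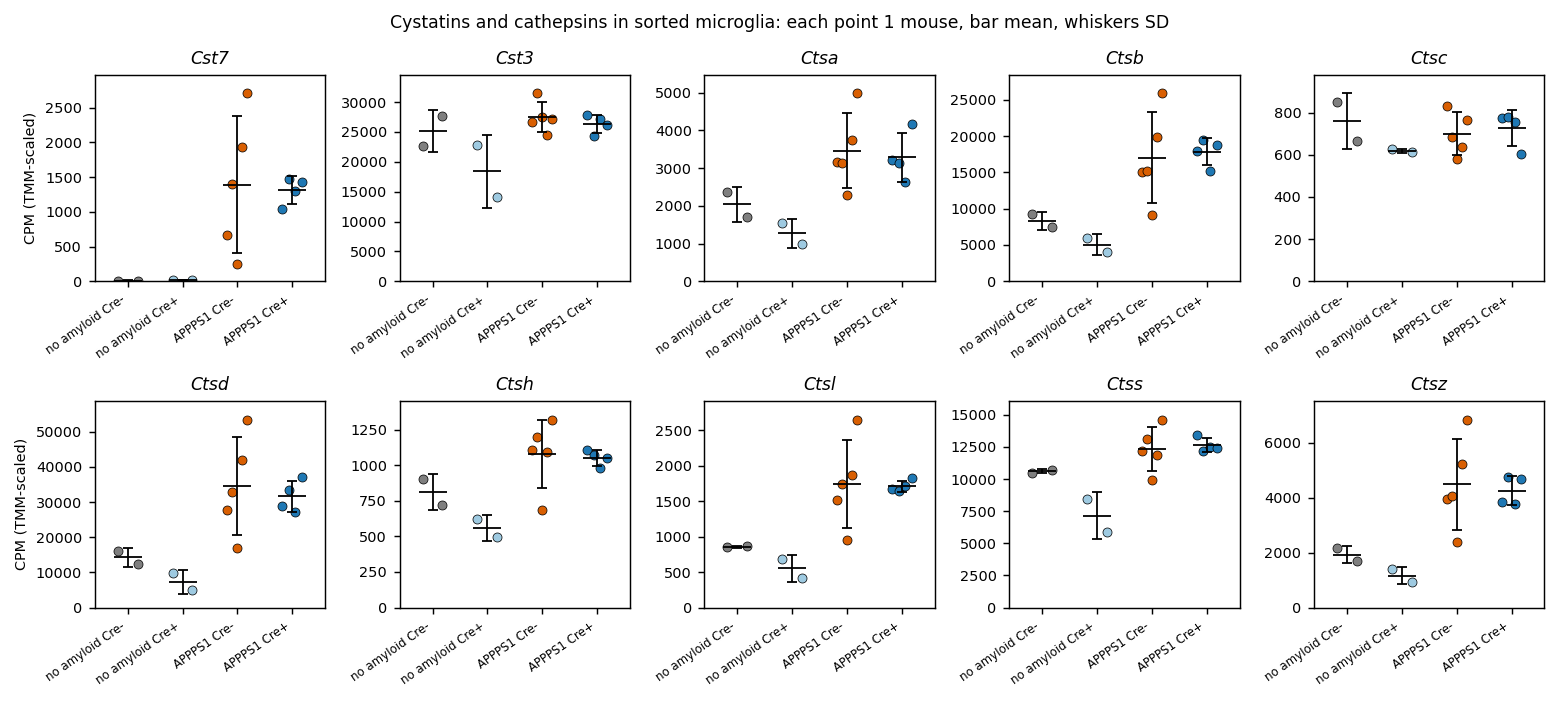
Levels of the 10 members in 13 microglia libraries, in CPM on a linear axis from 0, by genotype group (Cre+ marks ALDH1L1-CreERT mice). Points are mice, bars are means and whiskers are SD; Cst7 stands between 251.5 and 2709 CPM with amyloid and at 12.28 CPM or less without it.

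Among the proteases, the aspartic protease Ctsd (chromosome 7, 142375911 to 142388038), a main enzyme of lysosomal protein breakdown, rose most. It stood at 17030, 27690, 32960, 41850 and 53460 CPM in APPPS1 Cre-negative mice and at 27170, 28800, 33300 and 37160 CPM in APPPS1 Cre-positive mice. Amyloid-free mice 465, 759, 22 and 26 had 16120, 12340, 9778 and 4918 CPM. Every APPPS1 library was above every amyloid-free one, although mouse 469 at 17030 CPM lay near mouse 465. The log2 fold change was 1.69 ± 0.28 (edgeR adjusted p = 0.00350), and without mice 22 and 26 it was 1.23 ± 0.32 (edgeR adjusted p = 0.103). Ctsd alone took 1.77 to 4.68% of all mouse counts in APPPS1 microglia and 0.55 to 1.65% in amyloid-free microglia.

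Ctsz (cathepsin Z, also called X, a carboxypeptidase on chromosome 2, 174427493 to 174439039) had the second steepest change among cathepsins. Its APPPS1 levels were 2366, 3954, 4048, 5217 and 6834 CPM without Cre and 3770, 3853, 4665 and 4735 CPM with it. Amyloid-free mice 465, 759, 22 and 26 had 2148, 1701, 1384 and 938.5 CPM. The groups did not overlap, with mouse 469 again the lowest APPPS1 mouse. The log2 fold change was 1.55 ± 0.23 (edgeR adjusted p = 0.00255), and 1.20 ± 0.30 without mice 22 and 26 (edgeR adjusted p = 0.0859).

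Ctsb and Ctsl are cysteine endopeptidases of broad specificity that cystatins inhibit. Ctsb (chromosome 14, 63122462 to 63145923) stood at 9110, 15060, 15150, 19930 and 25900 CPM in APPPS1 Cre-negative mice and at 15190, 17950, 18710 and 19510 CPM in APPPS1 Cre-positive mice. It stood at 9201, 7448, 6018 and 3969 CPM in amyloid-free mice 465, 759, 22 and 26. Here mouse 469 fell just below amyloid-free mouse 465, so the groups overlapped by that library. The log2 fold change was 1.44 ± 0.23 (edgeR adjusted p = 0.00347). Ctsl (chromosome 13, 64359337 to 64370890) stood at 947.3, 1510, 1744, 1864 and 2649 CPM and at 1645, 1664, 1718 and 1820 CPM in the same APPPS1 groups. In the amyloid-free mice 465, 759, 22 and 26 it stood at 848.8, 868.1, 689.2 and 418.5 CPM. Ctsl did not overlap, and its log2 fold change was 1.32 ± 0.22 (edgeR adjusted p = 0.00410). Without mice 22 and 26 the log2 fold changes were 1.08 ± 0.29 for Ctsb and 1.02 ± 0.27 for Ctsl (edgeR adjusted p = 0.111 and 0.104).

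The remaining cathepsins changed less. Ctsa (chromosome 2, 164832873 to 164841032), a serine carboxypeptidase that also protects beta-galactosidase and neuraminidase in the lysosome, had 2286 to 4983 CPM (median 3149) in 9 APPPS1 mice and 991.8 to 2363 CPM (median 1628) in 4 amyloid-free mice. Its log2 fold change was 1.07 ± 0.21 (edgeR adjusted p = 0.0089), and the groups overlapped. Ctsh (chromosome 9, 90054152 to 90076089), an aminopeptidase, had 681.6 to 1318 CPM (median 1095) against 493.2 to 902.7 CPM (median 672.5), a log2 fold change of 0.66 ± 0.16 (edgeR adjusted p = 0.0214). Ctss (chromosome 3, 95526786 to 95556403), which cleaves the class II invariant chain and is typical of myeloid cells, had 9951 to 14630 CPM (median 12440) against 5869 to 10720 CPM (median 9476). Its log2 fold change was 0.52 ± 0.13 (edgeR adjusted p = 0.0278). Both Ctsh and Ctss overlapped between the groups, each through the low library of mouse 469. With that pair of mice left out, the log2 fold changes were 0.74 ± 0.25 for Ctsa, 0.40 ± 0.20 for Ctsh and 0.25 ± 0.14 for Ctss (edgeR adjusted p = 0.222, 0.412 and 0.490).

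Ctsc (chromosome 7, 88278085 to 88310888), the dipeptidyl peptidase that Cst7 is known to restrain and that activates granule proteases, did not pass either. It stood at 580.2 to 834.3 CPM (median 758.3) in APPPS1 microglia and at 613.5 to 853.3 CPM (median 645.2) in amyloid-free microglia. The ranges lay over each other, and the log2 fold change was 0.06 ± 0.13 (edgeR adjusted p = 0.801), and -0.07 ± 0.17 without mice 22 and 26 (edgeR adjusted p = 0.903).

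Together the 8 cathepsins took 4.47 to 9.67% of mouse counts in APPPS1 microglia and 2.04 to 4.39% in amyloid-free microglia. With the cystatins, the 10 members took 7.37 to 12.3% and 3.62 to 6.71%. Neither sum overlapped between the groups. Of the amyloid-free mice, 465 and 759 alone spanned 3.80 to 4.39% for the cathepsins and 6.70 to 6.71% for the 10 members. Per kilobase of transcript (the shortest APPRIS principal transcript of GENCODE M21), the median order in microglia was Cst3, Ctsd, Ctss, Ctsb, Ctsz, Cst7, Ctsa, Ctsl, Ctsh and Ctsc. Median levels per kilobase fell from 31100 for Cst3 and 13000 for Ctsd to 274 for Ctsc. Cst7 exceeded Ctsa in 7 of 13 libraries, Ctsd exceeded Ctss and Ctsl exceeded Ctsh in 9 of 13 each, and Ctsa exceeded Ctsl in 11 of 13, so these neighbours changed places between libraries. The other neighbours kept their order in 13 of 13.

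**Figure D2:**
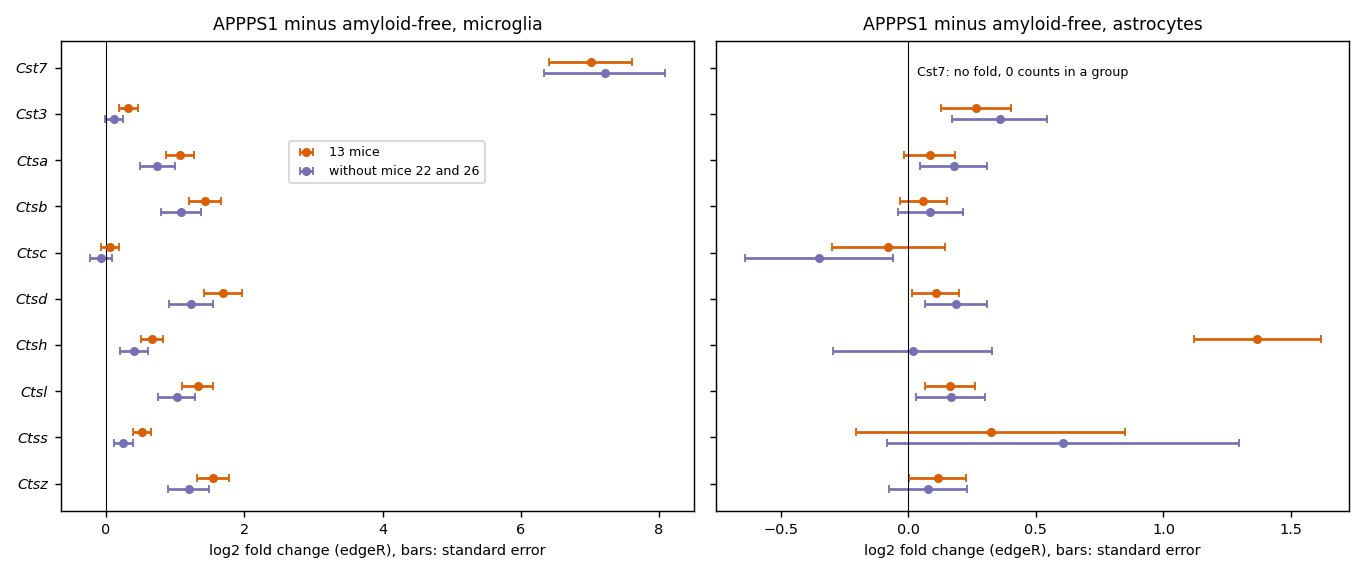
Log2 fold change of each member, APPPS1 minus amyloid-free averaged over Cre, in microglia (left) and astrocytes (right, with its own axis), with edgeR standard errors. Orange is the fit of 13 mice and purple the fit without mice 22 and 26; in microglia 8 members passed in the first and Cst7 alone in the second, and the Ctsh value in astrocytes moves from 1.37 to 0.02.

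The same contrast was then made within each Cre state. In Cre-negative mice (5 against 2), 1 of 10 members rose, Cst7, where 0.279% of genes rose. Ctsd (1.28 ± 0.38, edgeR adjusted p = 0.197) and Ctsz (1.22 ± 0.32, edgeR adjusted p = 0.139) did not pass, although neither overlapped between the groups. The number of members called changed when single mice were left out, as did the number of all genes called. Fits without mouse 465 or 759 leave 1 amyloid-free mouse in this contrast. Over the fits with 1 mouse left out, the log2 value ran from 6.86 to 7.5 for Cst7 and from 1.07 to 1.5 for Ctsd. In Cre-positive mice (4 against mice 22 and 26), 8 of 10 rose, where 3.65% of genes did, with Ctsd at 2.10 ± 0.40 and Ctsb at 1.84 ± 0.34 (edgeR adjusted p = 0.0189 for both). That number was 0 with the other-cell covariate, 1 without mouse 458 and 5 without mouse 475. The number of all genes called also changed when single mice were left out. Fits without mouse 22 or 26 leave 1 amyloid-free mouse in this contrast. Over the fits with 1 mouse left out, the log2 value ran from 1.73 to 2.77 for Ctsd and from 1.61 to 2.26 for Ctsb. The difference between the amyloid effects of the Cre states passed in edgeR for no member and for no gene (1527 genes had an unadjusted p under 0.05, and DESeq2 passed 51 genes and no member), and its log2 values ran from -0.47 for Cst7 to 0.82 for Ctsd. Of the members only Ctss had an unadjusted p under 0.05 in that test (0.0359).

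Deleting APOE4 in astrocytes was compared next, as Cre-positive minus Cre-negative. In microglia of APPPS1 mice no member passed in edgeR or DESeq2, where 0.00568% of genes did in edgeR (616 genes, and no member, had an unadjusted p under 0.05), and all 10 log2 fold changes lay between -0.13 (Ctsd) and 0.07 (Ctsb). Their standard errors were 0.14 to 0.45, and all 10 members overlapped between the groups. How many of all genes overlap in that contrast was not counted. The Cre-negative group was the more spread: Ctsd had an SD of 13850 CPM over 5 mice there and of 4518 CPM over 4 Cre-positive mice. In amyloid-free microglia no member passed in edgeR or DESeq2 either (0.0114% of genes did in edgeR). Ctsd and Ctss had an unadjusted p under 0.05 there, as 2 members among 2596 genes. Of the members, 9 of 10 had negative values there, from -0.29 (Ctsc) to -0.95 (Ctsd, edgeR adjusted p = 0.320), and Cst7 had 0.39. The median log2 fold change was -0.599 for the members, 0.07 for all genes and -0.724 for 15 microglial markers. The share of all genes with negative values was not counted, so the direction cannot be read as particular to members. That contrast sets mice 22 and 26, with their low microglial marker sums, against mice 465 and 759, with 2 mice on each side.

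Among the 9 APPPS1 microglia libraries, Cst7 and several cathepsins varied together, from mouse 469 at the low end to mouse 779 at the high end. Over these libraries, Pearson's r of log2 CPM with Cst7 was 0.941 for Ctsd (exact permutation p = 0.000113, adjusted over 9 relations 0.000544), and 0.94 without the 2 mice farthest from the Cst7 median. Ctsl reached 0.953, Ctsz 0.931 and Ctsb 0.928 (adjusted exact permutation p = 0.000544, 0.0009 and 0.00275). Spearman's rho was 0.933 for Ctsd, Ctsz and Ctsb alike (exact permutation p = 0.00075, adjusted 0.00225) and 0.833 for Ctsl (exact permutation p = 0.00827, adjusted 0.0186). For Ctss, r was 0.804 but rho was 0.333 and r fell to 0.348 without the 2 farthest mice, so that relation rests on them. For Ctsh, r was 0.855 with a rho of 0.4, and for Ctsa they were 0.783 and 0.633. Cst3 (r = -0.178) and Ctsc (r = 0.291) showed no relation that passed (exact permutation p = 0.607 and 0.474). Shares of 1 library are linked to each other, and the relation was not tested within a Cre state (5 and 4 mice). How many of all genes vary with Cst7 to this degree was not counted. Genes outside the members, such as Fabp3 (r = 0.989) and Ndufa2 (r = 0.983), exceeded every cathepsin, so the relation cannot be read as particular to cathepsins.

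**Figure D3:**
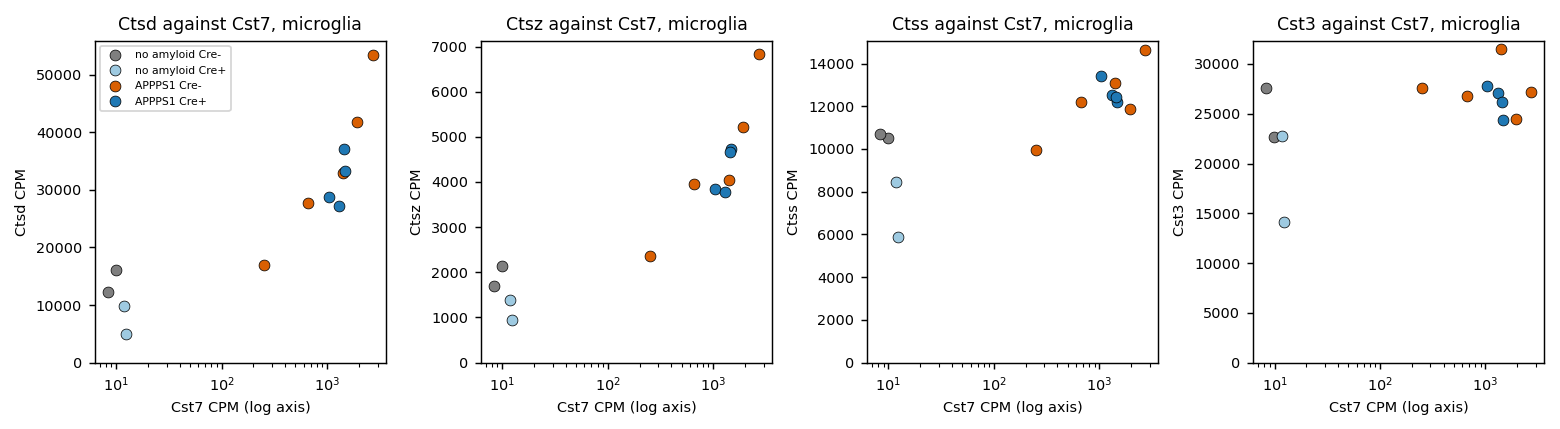
Ctsd, Ctsz, Ctss and Cst3 (CPM, linear axes) against Cst7 (CPM, log axis) in 13 microglia libraries, coloured by group. Among the APPPS1 libraries Ctsd and Ctsz climb with Cst7 (r = 0.941 and 0.931 over 9 mice), Cst3 does not (r = -0.178), and the 4 amyloid-free libraries sit apart at the left.

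The genes most like these members over the same 9 libraries are given as a description, from 8061 genes compared. For Cst7 they were Fabp3 (a fatty acid binding protein), Hmgn3, Cox6a2, Ggh and Ndufa2, with r of 0.983 to 0.989. For Ctsd they were Tmed3, Pld3 (a lysosomal nuclease), Ctsz, Npc2 (a lysosomal cholesterol carrier) and Rab7b, with r of 0.984 to 0.990. For Cst3 they were Rbbp8, Layn, Polr1e, Mettl3 and D11Wsu47e, with r of 0.875 to 0.956.

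Other genes of the pathway were read from lists in the same microglia contrast, averaged over Cre, in which 6.06% of all genes rose and 3.52% fell. Of 15 other cathepsins, 6 could be tested and 2 rose. Ctse, an endosomal aspartic protease, went from 1.90 to 9.20 CPM in amyloid-free mice to 9.62 to 69.9 CPM with amyloid (log2 3.04 ± 0.51, edgeR adjusted p = 0.00430), without overlap. Ctsf rose by 0.62 ± 0.15 on the log2 scale (edgeR adjusted p = 0.0213). Of 19 other cystatins, 10 could be tested and 1 rose, Cstb, a cystatin of the cytosol and nucleus (0.75 ± 0.18, edgeR adjusted p = 0.0230). Of 7 other inhibitors, 1 rose, Ctla2b (0.70 ± 0.21, edgeR adjusted p = 0.0473). The serpin Serpina3n was at 0.35 CPM or less in every microglia library and at 8.42 to 38.96 CPM in astrocytes.

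Of 6 other lysosomal peptidases, 3 rose. They were Dpp7, a dipeptidyl peptidase (1.76 ± 0.26, edgeR adjusted p = 0.00216), Scpep1 (0.83 ± 0.17, edgeR adjusted p = 0.0121) and Tpp1, a tripeptidyl peptidase (0.60 ± 0.18, edgeR adjusted p = 0.0492). The asparaginyl protease Lgmn, which cleaves cathepsin precursors, stood at 0.40 ± 0.15 and did not pass (edgeR adjusted p = 0.115). Of 12 sorting and activation genes, 3 rose and 1 fell. The risers were Glb1, the beta-galactosidase that Ctsa protects (1.62 ± 0.25), Gnptg, a subunit of the enzyme that makes the mannose 6-phosphate tag (0.90 ± 0.14), and the adaptor Gga2 (0.81 ± 0.22, edgeR adjusted p = 0.0326). The one that fell, Igf2r, is a mannose 6-phosphate receptor (-1.84 ± 0.45, edgeR adjusted p = 0.0236), and it was scarce: mouse 26 had 15.97 CPM and the other 12 mice had 0.366 to 2.13 CPM, so that 1 library holds most of the amyloid-free signal. None of 4 members of the TFEB family (Tfeb, Tfe3, Tfec and Mitf) passed, nor did any of 7 tested genes of cytotoxic and neutrophil granules, among them the proteases that Ctsc activates (Gzma at -1.64 ± 0.50, edgeR adjusted p = 0.0533). Of 3 class II chaperones, H2-DMa rose (0.59 ± 0.14, edgeR adjusted p = 0.0219). Without mice 22 and 26, Ctse was the only gene of these 8 lists that passed, and Igf2r did not.

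In astrocytes the members were lower than in microglia, Cst3 by the least, and none passed with amyloid when averaged over Cre. Their levels per kilobase ran in the order Cst3, Ctsd, Ctsb, Ctsz, Ctsl, Ctsa, Ctsh, Ctsc, Ctss and Cst7, with medians of 13000 for Cst3, 486 for Ctsd, 320 for Ctsb and 0.213 for Cst7. Ctsz exceeded Ctsl, Ctsh exceeded Ctsc and Ctsc exceeded Ctss in 11 of 13 libraries each, and the other neighbours kept their order in 13 of 13. The 10 members took 1.15 to 1.72% of mouse counts, most of it Cst3, and the 8 cathepsins 0.297 to 0.368%. In that contrast no gene of 20052 passed (edgeR; 1409 genes had an unadjusted p under 0.05, and DESeq2 passed 254 genes, of which 1 was a member, Ctsh).

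Cst3, the abundant astrocytic member, had 8749 and 9587 CPM in amyloid-free Cre-negative mice and 9936 and 11250 CPM in amyloid-free Cre-positive mice. With amyloid it had 10500 to 12940 CPM without Cre (5 mice) and 7871, 13010, 13530 and 14290 CPM with it. The low value of 7871 CPM was that of mouse 458. The groups overlapped through it and through APPPS1 Cre-negative mice 469, 774 and 779. These had 10500, 10570 and 11200 CPM, below the 11250 CPM of amyloid-free mouse 26. Its log2 fold change was 0.27 ± 0.14 (edgeR adjusted p = 0.751). For Ctsa, Ctsb, Ctsd, Ctsl and Ctsz the amyloid values lay between 0.06 and 0.16, with standard errors of 0.09 to 0.11. Within Cre-negative mice Cst3, Ctsa, Ctsb, Ctsd and Ctsz were higher in every APPPS1 library than in mice 465 and 759. Their ratios of means were 1.108 (Ctsb) to 1.257 (Cst3), and none of them passed in edgeR, where 0% of all genes were called. How many of all genes separate in this way was not counted, so this cannot be read as particular to members. Within Cre-positive mice these 5 overlapped, with ratios of 0.939 for Ctsa, 0.951 for Ctsd, 0.979 for Ctsb, 1.032 for Ctsz and 1.149 for Cst3. The difference between the Cre states did not pass for any of the 5 (edgeR adjusted p = 0.492 to 0.920).

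**Figure D4:**
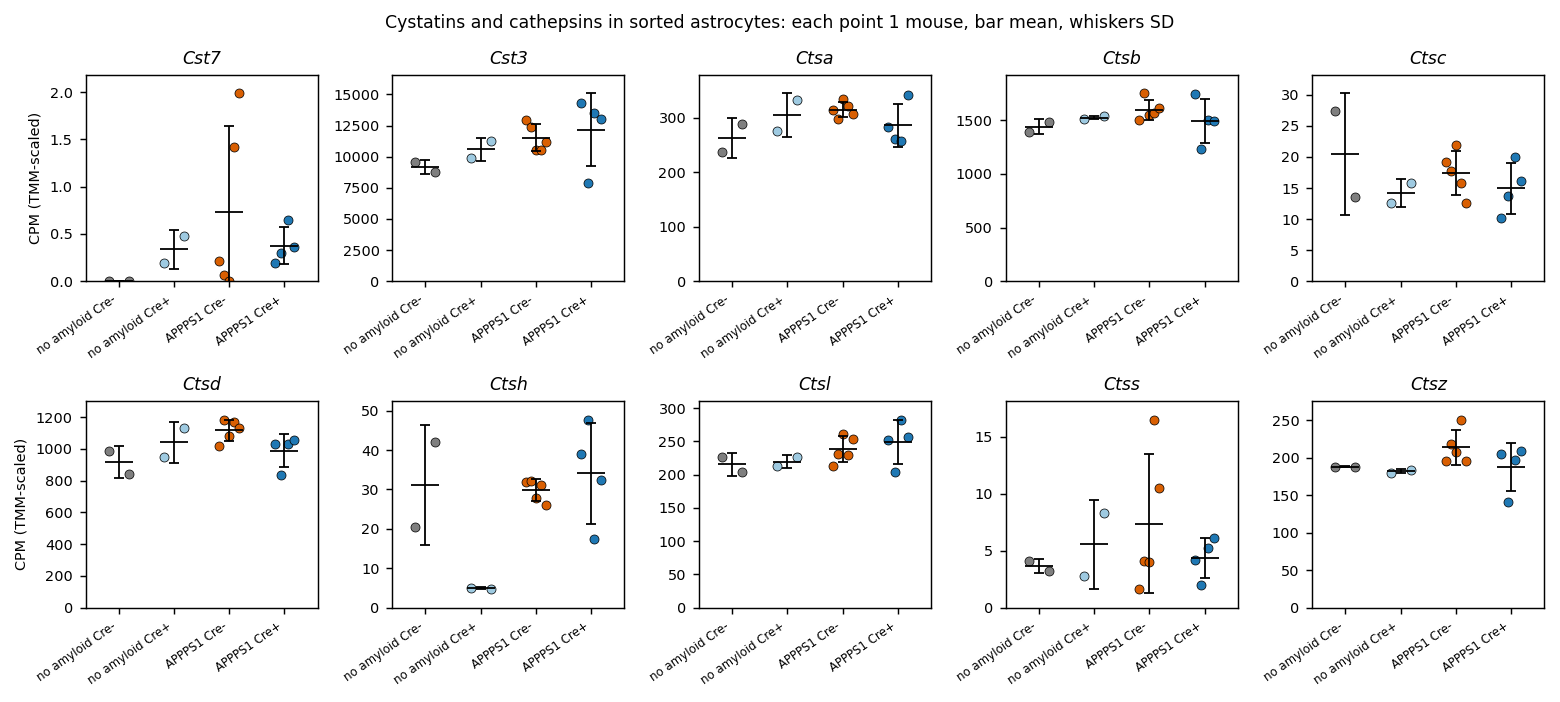
Levels of the 10 members in 13 astrocyte libraries, drawn as for microglia but with each panel on its own linear CPM axis from 0. Ctsh is at about 5 CPM in both amyloid-free Cre-positive libraries and at 17.41 CPM or more in the other 11, and Cst7 and Ctss stay under 20 CPM in all 13.

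Ctsh was the exception in astrocytes. It had 4.74 and 5.07 CPM in the amyloid-free Cre-positive mice 26 and 22, and 20.41 and 41.91 CPM in the amyloid-free Cre-negative mice 465 and 759. With amyloid it had 25.99, 27.88, 31.07, 31.84 and 32.19 CPM without Cre and 17.41, 32.38, 38.94 and 47.72 CPM with it. So both libraries of 1 group lay below all others, and the other 3 groups overlapped. Ctsh rose with amyloid in Cre-positive mice (2.80 ± 0.39 on the log2 scale, edgeR adjusted p = 0.0143), as 1 of 10 members where 0.578% of genes rose. It fell with Cre in amyloid-free mice (-2.67 ± 0.41, edgeR adjusted p = 0.0442), as 1 of 10 where 0.16% of genes fell. Its amyloid effect differed between the Cre states by 2.86 ± 0.48 (edgeR adjusted p = 0.0364), as 1 of 10 where 0.14% of genes had a higher effect in Cre-positive mice. In Cre-negative mice, where no gene passed in edgeR (815 had an unadjusted p under 0.05, and DESeq2 passed 19 genes and no member), the Ctsh amyloid value was -0.06 ± 0.32 (edgeR adjusted p = 1.0). In the Cre contrast of APPPS1 mice it was 0.20 ± 0.26 (edgeR adjusted p = 0.954), and no member passed there, where 0.00997% of genes did.

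The Ctsh-low libraries also had the lowest endothelial signal of the astrocyte sort. Summed over 10 endothelial markers, mice 22 and 26 had 51.8 and 77.5 CPM, mice 460 and 465, next in Ctsh, had 143 and 195 CPM, and the other 9 mice had 286 to 851 CPM. None of the 10 markers was at 0 in any of these libraries. With other-cell markers as covariate the Ctsh value in Cre-positive mice was 2.51 (edgeR adjusted p = 0.0356), that of Cre in amyloid-free mice was -2.28 (edgeR adjusted p = 0.103) and the difference of effects was 2.48 (edgeR adjusted p = 0.0921). In astrocytes this covariate was the mean log2 CPM of microglial, neuronal, oligodendrocyte and endothelial markers together. It was 2.69 and 3.48 in mice 22 and 26 and 3.04 to 4.06 in APPPS1 mice. Mouse 26 thus lay within that range despite its low endothelial sum, and the covariate does not adjust for endothelial signal alone. The part of endothelial cells in the result was not tested. The amyloid effect in Cre-positive mice did not pass without mouse 22 or without mouse 26, which leaves 1 mouse in that group, assumed to vary like the others (edgeR adjusted p = 0.226 and 0.209). The difference of effects passed with mouse 439, 460 or 465 left out and in no other such fit. The fall with Cre in amyloid-free mice passed with mouse 439, 458, 460 or 465 left out and in no other such fit (edgeR adjusted p = 0.00893 to 0.327), and it did not pass with those groups fitted alone (edgeR adjusted p = 0.119).

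**Figure D5:**
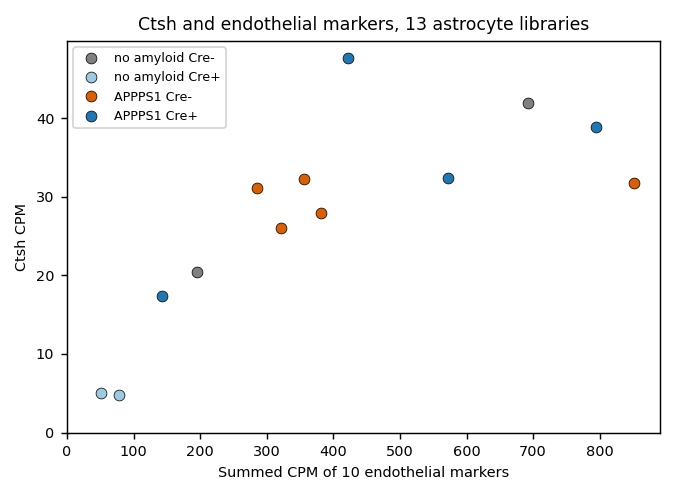
Ctsh (CPM) against the summed CPM of 10 endothelial markers in 13 astrocyte libraries, coloured by group. The 4 libraries with the least Ctsh, of mice 26, 22, 460 and 465, are also the 4 with the lowest endothelial sum (51.8 to 195 CPM).

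Cst7 and Ctss, both typical of myeloid cells, were the members of lowest level in astrocytes. Cst7 had 0 counts in mice 465, 759 and 469 (a count of 0 allows up to 0.0743 CPM in these libraries, for counting error only), and at most 78 counts, in mouse 779. Pooled by group, it was at 0.714 CPM in APPPS1 Cre-negative, 0.404 CPM in APPPS1 Cre-positive and 0.348 CPM in amyloid-free Cre-positive mice. Against amyloid-free Cre-negative mice, at 0, these pooled levels were at least 19.5-fold, 11-fold and 9.51-fold higher, with the floor set at 3 counts over that group. These bounds hold for counting error only and leave out the spread between mice. In APPPS1 Cre-negative mice 439, 447, 469, 774 and 779 the counts were 8, 3, 0, 60 and 78. Cst7 passed in no contrast of the main edgeR fit of astrocytes. Single libraries set these bounds: without mouse 779 the first was 11.5-fold, and without mouse 26 the last was 5.24-fold. Ctss had 1.63 to 16.49 CPM, from 62 to 699 counts. Summed microglial markers were 100.8 to 180.3 CPM in the same libraries, highest in mouse 774, which also had the most Ctss and the second most Cst7. Mouse 779, with the most Cst7, had 133.3 CPM of them. Monocyte and neutrophil markers summed to 363.9 CPM in mouse 774 and to 0.384 to 5.10 CPM in the other 12 libraries. The part of microglial or other myeloid RNA in these values was not tested.

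Between the sorts, all 10 members were higher in microglia (edgeR on 26 libraries, where 35.4% of 21612 genes were higher), and no member overlapped. How many of all genes do not overlap between the sorts was not counted, so the separation cannot be read as particular to members. On CPM scaled over both sorts, Ctss stood at 6658 to 17830 CPM in microglia and at 1.33 to 14.34 CPM in astrocytes (log2 difference 11.50 ± 0.50, edgeR adjusted p = 2.1e-15). Cst3 differed least, at 16010 to 37590 CPM against 6607 to 11990 CPM (1.65 ± 0.11, edgeR adjusted p = 2.4e-12). For the other cathepsins the log2 difference ran from 2.74 (Ctsl) to 5.91 (Ctsh), with Ctsd at 4.68 and Ctsc at 5.89. The mean of Cst7 was 1132 CPM in microglia and 0.38 CPM in astrocytes. All 10 also passed with mouse as a replicate block and without mice 22 and 26. The median of all genes was -0.18 on the log2 scale, and -0.30 with RLE scaling or DESeq2, and under each of these all 10 members stayed higher in microglia.

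The amyloid effect itself was larger in microglia than in astrocytes for 5 members in the fit without the block, where 0.773% of genes had a larger effect in microglia. They were Ctsd (log2 difference of effects 1.61 ± 0.31), Ctsz (1.46 ± 0.28), Ctsb (1.4 ± 0.27), Ctsl (1.19 ± 0.26) and Ctsa (1.01 ± 0.25), with edgeR adjusted p of 0.00961 to 0.0455. With mouse as a replicate block, since both sorts came from the same animals, 0 passed: the values were 1.60, 1.44, 1.38, 1.18 and 1.0, and edgeR adjusted p was 0.0537 to 0.139. In a fit without the block and without mice 22 and 26, 0 passed as well, and the values were 1.02, 1.09, 0.96, 0.83 and 0.53 (edgeR adjusted p = 0.392 to 0.684). No member passed without mouse 26 or without mouse 759 either, and 3 passed without mouse 465 or without mouse 475. Cst7 has no fold in this comparison, as 1 astrocyte group was at 0.

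Some members share ground with other genes, and the labels and notes used here do not give the strand setting of the counting. Ctsb overlaps Fdft1 on the opposite strand (median 787 counts in microglia and 16005 in astrocytes), Ctsa overlaps Pltp (853 and 7940), Ctsz overlaps Nelfcd (2395 and 2868) and Ctsc overlaps Gm26522 (1685 and 8). Ctss overlaps the pseudogene Hmgb1-ps5 (371 and 8). Ctsd overlaps Gm49369 on its own strand, and Ctsl overlaps Gm49230 on its own strand and Gm47123 on the other; counts of these 3 genes were not analysed here. Reads of such pairs may have been split or dropped, and these members' levels are uncertain to that extent.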

How the data were processed

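RNA was extracted from sorted microglia and astrocytes and made into SMARTer libraries, per the labels' protocols. The authors deposited raw counts per gene for mouse and human genes in 1 table; STAR, Subread and featureCounts and the builds GRCm38 and GRCh38 are named in the submitters' processing notes, and their roles and settings are not given in the sources used here. Identical duplicate rows (258 gene identifiers) were kept once, and 40481 mouse genes were used. Each library's total count was 26162612 to 59238523. Groups came from the genotype labels; the 10 genes and all lists were chosen with earlier results of these data known. Genes were named by a rule: all members, and up to 4 genes of lowest p from each list.

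Tests used edgeR 4.0.16 (R 4.3.3): TMM scaling, the default filter by group, 1 term per group, a quasi-likelihood fit, and Benjamini-Hochberg adjustment over all genes tested. The standard error is the fold change divided by the root of F. Alternatives were DESeq2 1.42.0, RLE scaling, no filter, each mouse left out, the compared groups alone, libraries as labelled, markers of other cells as a covariate, a replicate block and, chosen after seeing the data, leaving out mice 22 and 26. On simulated counts for 17020 genes in microglia, 61% of genes changed by a factor of 2 and 95% of those changed by 4 were recovered for the amyloid contrast. The numbers pair the samples because both sorts of a number come from 1 animal; the correlation of their deviations was -0.133 to 0.339 over 13 mice. Within a sort, the p-values measure the spread between mice. In the comparisons across sorts the main fit had no term for mouse, so its p-values measure the spread between libraries. Motifs were searched on both strands of RefSeq promoters.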

Additional observations from a re-analysis of the deposited data

Results flagged for a closer look

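Outlying libraries were looked for in 40 sets of 4 or 5 libraries (1 gene, 1 group, 1 sort), of which chance marks about 1 in 20. In astrocytes of APPPS1 Cre-positive mice, mouse 458 lay far below the others for Cst3 (7870 CPM, the others 13000 to 14300), Ctsd (835 CPM, the others 1030 to 1060) and Ctsz (141 CPM, the others 197 to 209). In microglia, mouse 469 was low for Ctsh among APPPS1 Cre-negative mice (682 CPM, the others 1100 to 1320), and mouse 475 was low for Ctsc among APPPS1 Cre-positive mice (602 CPM, the others 758 to 779).

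Effects that differed between groups were the amyloid effect on Ctsh in astrocytes, which differed between Cre states by 2.86 on the log2 scale, and the amyloid effects that were larger in microglia than in astrocytes, by 1.61 for Ctsd, 1.46 for Ctsz, 1.4 for Ctsb, 1.19 for Ctsl and 1.01 for Ctsa. The latter 5 did not pass with the replicate block or without mice 22 and 26.

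Outside the comparisons, human rows of 3 members held more counts than the floor of 3 in some libraries: at most 6 for CTSB, 5 for CTSC and 9 for CTSS. In the libraries of mouse 459, left out above, Cst7 stood at 1.22 CPM in the one labelled microglia and at 1740 CPM in the one labelled astrocyte.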

How the results depend on the processing

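Over all alternatives, member log2 fold changes kept direction and side of the threshold in 2287 cases, lost the call in 130, gained it in 16 and changed sign in 94; the cause was not tested. Fewer or more of the 10 members passed in some settings. With libraries as labelled, mouse 459 included, the count was 0 for amyloid averaged over Cre in microglia, 0 for amyloid in Cre-negative mice in microglia, 0 for amyloid in Cre-positive mice in microglia, 0 for amyloid in Cre-positive mice in astrocytes, 0 for Cre in amyloid-free mice in astrocytes, 0 for the amyloid by Cre interaction in astrocytes and 0 for the amyloid effect of microglia minus astrocytes. With other-cell markers as covariate, the count was 0 for amyloid averaged over Cre in microglia, 0 for amyloid in Cre-positive mice in microglia, 0 for Cre in amyloid-free mice in astrocytes and 0 for the amyloid by Cre interaction in astrocytes. Without mice 22 and 26, the count was 1 for amyloid averaged over Cre in microglia and 0 for the amyloid effect of microglia minus astrocytes. With DESeq2, the count was 5 for amyloid in Cre-negative mice in microglia and 1 for amyloid averaged over Cre in astrocytes. With the compared groups fitted alone, the count was 0 for amyloid in Cre-negative mice in microglia and 0 for Cre in amyloid-free mice in astrocytes. With no filter, the count was 2 for amyloid in Cre-negative mice in microglia. With the replicate block, the count was 0 for the amyloid effect of microglia minus astrocytes. The replicate block could be fitted only across both sorts, and it changed no call other than those 5; averages and interactions were not run with the compared groups alone. The numbers of all genes called for amyloid averaged over Cre in microglia were 1685 by edgeR, 2722 by DESeq2, 131 without mice 22 and 26, 19 with libraries as labelled, 1 with the covariate and 392 to 2441 with 1 mouse left out. With 2 mice in each amyloid-free group, folds of low genes (Cst7, Ctss and Ctsc in astrocytes) are the least precise.

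With libraries as labelled, mouse 459 included, the log2 fold changes that turned sign were these. For amyloid averaged over Cre in microglia, Ctsc had -0.0717. For amyloid in Cre-positive mice in microglia, Ctsc had -0.039. For Cre in APPPS1 mice in microglia, Ctsb had -0.229, Ctsc had -0.256 and Ctss had -0.285. For amyloid averaged over Cre in astrocytes, Ctsc had 1.85. For amyloid in Cre-positive mice in astrocytes, Ctsa had 1.85, Ctsb had 1.78, Ctsd had 3.21 and Ctss had 9.44. For Cre in APPPS1 mice in astrocytes, Cst7 had 9.39, Ctsa had 1.83, Ctsb had 1.74, Ctsc had 3.68, Ctsd had 3.14, Ctss had 9.06 and Ctsz had 2.72. For the amyloid by Cre interaction in astrocytes, Cst3 had 0.405, Ctsa had 1.6, Ctsb had 1.64, Ctsd had 2.93, Ctss had 8.44 and Ctsz had 2.74. For the amyloid effect of microglia minus astrocytes, Cst3 had -0.307, Ctsa had -0.125, Ctsc had -1.94, Ctsd had -0.198, Ctss had -4.85 and Ctsz had -0.151. With other-cell markers as covariate, the log2 fold changes that turned sign were these. For amyloid averaged over Cre in microglia, Ctsc had -0.329. For amyloid in Cre-positive mice in microglia, Ctsc had -0.448. For Cre in APPPS1 mice in microglia, Ctsb had -0.065, Ctsc had -0.0725 and Ctss had -0.0502. For Cre in amyloid-free mice in microglia, Ctsc had 0.166 and Ctsh had 0.0129. For the amyloid by Cre interaction in microglia, Ctsc had -0.238, Ctsh had -0.197, Ctsl had -0.122 and Ctsz had -0.0423. For amyloid averaged over Cre in astrocytes, Ctsc had 0.0178. For amyloid in Cre-negative mice in astrocytes, Ctsh had 0.024. For amyloid in Cre-positive mice in astrocytes, Cst7 had -0.052 and Ctsz had -0.000903. For Cre in amyloid-free mice in astrocytes, Ctsl had -0.0177 and Ctsz had 0.00796. Without mice 22 and 26, the log2 fold changes that turned sign were these. For amyloid averaged over Cre in microglia, Ctsc had -0.0737. For the amyloid effect of microglia minus astrocytes, Cst3 had -0.275, Ctsh had 0.352 and Ctss had -0.391.

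Leaving out each mouse in turn moved the count of members called over 5 to 9 for amyloid averaged over Cre in microglia, 0 to 5 for amyloid in Cre-negative mice in microglia, 0 to 9 for amyloid in Cre-positive mice in microglia, 0 to 2 for Cre in amyloid-free mice in microglia, 0 to 1 for amyloid averaged over Cre in astrocytes, 0 to 1 for amyloid in Cre-positive mice in astrocytes, 0 to 1 for Cre in amyloid-free mice in astrocytes, 0 to 1 for the amyloid by Cre interaction in astrocytes and 0 to 5 for the amyloid effect of microglia minus astrocytes. Folds that turned sign in some of these fits covered the following log2 ranges. For amyloid in Cre-negative mice in microglia they were Ctsc -0.284 to 0.0893. For Cre in APPPS1 mice in microglia they were Cst7 -0.334 to 0.306, Ctsa -0.209 to 0.0946, Ctsb -0.0747 to 0.268, Ctsd -0.285 to 0.0807, Ctsh -0.149 to 0.0427, Ctsl -0.165 to 0.175, Ctss -0.0175 to 0.103 and Ctsz -0.219 to 0.127. For amyloid averaged over Cre in astrocytes they were Ctsc -0.291 to 0.205. For amyloid in Cre-negative mice in astrocytes they were Ctsc -0.648 to 0.346 and Ctsh -0.505 to 0.55. For amyloid in Cre-positive mice in astrocytes they were Cst7 -0.356 to 0.962, Ctsa -0.218 to 0.0524, Ctsb -0.115 to 0.0301, Ctsc -0.0925 to 0.251, Ctsd -0.191 to 0.059, Ctss -0.937 to 0.65 and Ctsz -0.0316 to 0.142. For Cre in APPPS1 mice in astrocytes they were Cst3 -0.00673 to 0.235, Ctsh -0.019 to 0.413 and Ctsl -0.0041 to 0.146. For Cre in amyloid-free mice in astrocytes they were Ctsc -0.929 to 0.0643, Ctsl -0.0322 to 0.111 and Ctss -0.407 to 1.18. For the amyloid by Cre interaction in astrocytes they were Cst3 -0.215 to 0.0161, Ctsc -0.281 to 0.712 and Ctsl -0.045 to 0.107. For the amyloid effect of microglia minus astrocytes they were Cst3 -0.128 to 0.348, Ctsc -0.033 to 0.287 and Ctss -0.415 to 0.683.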
